A study of Rattus norvegicus with 4 samples.

Results

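The autophagy machinery and its cargo receptors were described in NR8383 cells, a continuous rat alveolar macrophage line, after exposure to carbon black. The 36 genes were chosen by symbol as core autophagy genes and receptors, and a gene counted as measured where a probe's RefSeq accession named it. This gave 32 genes with 49 probes, of 16581 named genes and 45598 probes on the array, while Pik3r4, Atg2b, Atg4b and Epg5 were not matched to a probe. The study asked how transcript levels respond to carbon black Printex 90, an aggregated carbon nanoparticle powder. Its arrays used here came from 1 group of 4 biological replicates, each incubated with 0.9 cm² of particle surface per cm² for 4 h after 48 h in culture. All cells were of the same line, obtained by lavage of a normal rat lung, had been through 20 passages, carried no genetic change named in the labels and grew partly attached and partly floating in 15% serum. Unexposed cells were not analysed here, so no value below is an effect of carbon black, and the only comparisons were between replicate arrays and with the other genes on them.

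Autophagy encloses cytoplasm in a double membrane, the autophagosome, and delivers it to the lysosome. The ULK1 kinase complex starts the process, a lipid kinase complex built on Becn1 and Pik3c3 marks the membrane, ATG9 vesicles and lipid transfer proteins feed it, and a ubiquitin-like conjugation system attaches ATG8 proteins (the LC3 and GABARAP families) to its lipids. Cargo receptors such as Sqstm1 (p62) bind ubiquitin on one side and ATG8 proteins on the other, and in macrophages the same conjugation machinery also acts on phagosomes that hold particles or microbes.

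Autophagy genes are known to be transcribed under MiT/TFE factors, which bind an E-box with the letters CACGTG, and Sqstm1 is known in mouse and human to be induced by NRF2, which binds the antioxidant response element TGACNNNGC. Both sets of letters were therefore searched on both strands in the RefSeq promoter windows of assembly GRCr8, from 250 bases before to 50 bases after the gene start, which exist for 32 of the 36 genes. The E-box letters stood in 5 of the 32 (15.6%), namely Atg3, Atg5, Atg14, Tbk1 and Epg5, against 6.42% of all 33469 windows. The antioxidant letters stood in 6 (18.8%), namely Map1lc3b, Gabarap, Ulk2, Vmp1, Atg10 and Atg4b, against 12.1% of all windows. Here and below, all windows were taken without a filter for gene type, expression or base content, and the shares were not tested. The window of Sqstm1 held neither, which says only that these letters are not in that window. A match is a description of letters and not of a bound site. The 5 stretches below run 5′ to 3′ on the gene's strand from 100 bases before the start to base 5 of the transcript, with the matched letters in capitals, and were chosen because they show each kind of match near the start of a measured gene.

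Atg3, chr11:69159276-69159380, minus strand: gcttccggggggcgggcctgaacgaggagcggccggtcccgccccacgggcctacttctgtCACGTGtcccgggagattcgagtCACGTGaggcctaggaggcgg
Atg5, chr20:49380735-49380839, plus strand: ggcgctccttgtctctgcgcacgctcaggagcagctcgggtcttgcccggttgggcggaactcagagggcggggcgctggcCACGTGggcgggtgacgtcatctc
Tbk1, chr7:58996353-58996457, minus strand: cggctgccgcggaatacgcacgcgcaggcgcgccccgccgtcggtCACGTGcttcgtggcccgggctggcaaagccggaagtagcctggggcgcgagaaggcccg
Map1lc3b, chr19:66574495-66574599, plus strand: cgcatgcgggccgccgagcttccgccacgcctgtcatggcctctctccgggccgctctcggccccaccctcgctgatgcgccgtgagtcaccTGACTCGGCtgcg
Ulk2, chr10:47029840-47029944, minus strand: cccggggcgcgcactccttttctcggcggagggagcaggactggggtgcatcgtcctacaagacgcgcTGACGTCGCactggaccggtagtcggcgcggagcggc

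Atg3 alone among these carried the E-box letters at 2 places, starting 39 and 16 bases before the gene start. The one nearer the start read TCACGTGA with its flanking bases, an extended form that contains the E-box and stood in 2 of the 32 windows (6.25%), those of Atg3 and Epg5, and in 0.777% of all windows. In Map1lc3b the antioxidant letters began 8 bases before the start, and in Ulk2 32 bases before it.

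A level is the log2 processed intensity of a probe minus the 75th percentile of its array, so that a probe at 0 is as bright as that percentile and 1 unit more is a doubling. Levels of different probes depend on probe design and were not ranked against each other. The 4 arrays marked between 37.5% and 40.9% of the 45598 probes well above background, and all lay on 1 slide with 1 scan. The macrophage markers listed for this line were present, with 10 of 10 well above background on all 4 arrays, against 48.0% of all named genes. On any array, 0 of 5 alveolar epithelial, 0 of 5 T and NK cell and 0 of 5 fibroblast markers were so. Of all 16581 named genes, 7303 carried the mark on no array. The marker lists were chosen with earlier results of these data known. Of 4 endothelial markers only Cdh5, on 2 arrays, and of 3 measured granulocyte markers only S100a8, on 2 arrays, carried the mark. Replicate 1 differed from the others in its background. A bright area covered 1288 of its 62976 spots with a local background above 40 scanner units, against 0 spots on the other 3 arrays. These spots also enter the percentile that sets the scale of replicate 1. Without them the median SD of the autophagy genes described below was 0.132 in place of 0.154, and the SDs of Map1lc3a (0.066 in place of 0.10) and Optn (0.072 in place of 0.045) were the only 2 of 31 that moved by over 1.5 times.

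Most of the autophagy machinery was expressed in the exposed cells. The scanner software's mark for signal well above background was set on all 4 arrays for 28 of the 32 measured genes (87.5%), against 48.0% of all named genes. The other named genes were not selected for expression in macrophages, and the count was not tested. Atg13, Atg12 and Tbk1 carried the mark on replicates 2, 3 and 4 and not on replicate 1. Their intensities on replicate 1 were 22.1, 24.0 and 21.8, beside a lowest marked intensity of 22.3 on that array and of 10.8 to 12.1 on the others, so these transcripts lie near the detection limit of replicate 1. Wipi1, which binds the phosphoinositide made by Pik3c3, was the only measured gene without the mark on any array, with intensities of 5.40, 2.61, 2.58 and 2.81. Its paralog Wipi2 was well above background on all 4.

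None of the 31 genes tested passed the test for a spread between replicates larger than that of genes of its brightness. In a variance test computed from limma's fit, here called limma's variance test, 0 of 31 passed an adjusted p of 0.05. This was against 0.476% of all 14913 tested genes and 8 of the 8479 tested genes with a RefSeq name. At such shares a count of 0 of 31 does not set these genes apart from others. Unadjusted p was below 0.05 for 0 of 31, against 5.06% of all tested genes and 238 of the 8479 named ones. The 3 smallest unadjusted values in limma's variance test were 0.0629 for Sqstm1, 0.0756 for Atg9a and 0.0758 for Atg101, and each became 0.987 after adjustment. Unadjusted values below 0.05 did occur in the same test under other settings, namely 0.0437 for Sqstm1 with the percentile taken over detected probes and 0.0379 for Atg9a with normexp, and 0.0188 and 0.0201 for a second probe of each when probes were tested singly. None of these passed after adjustment (adjusted p = 0.988, 0.768, 0.660 and 0.678). The median SD between arrays was 0.154 log2 units for the 31 genes, 0.161 for all tested genes and 0.147 for the named ones among them. Single SDs ran from 0.037 for Calcoco1 to 0.347 for Atg5, an order that depends on the setting. With normexp 16 of the 31 SDs moved by over 1.5 times, to 0.166 for Calcoco1 and 0.097 for Atg5, and the ends were 0.027 for Tax1bp1 and 0.363 for Atg9a. Vmp1 had the smallest SD with quantile normalization (0.012) and cyclic loess (0.029). Leaving out replicate 1 lowered 10 of the 31 SDs by over 1.5 times, among them Sqstm1, Wipi2 and Uvrag, and leaving out replicate 2 lowered 6, among them Ulk2. As the plot of SD against level shows for the main setting, the largest belonged to dim probes, for which the spread of other genes was also large.

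**Figure D1:**
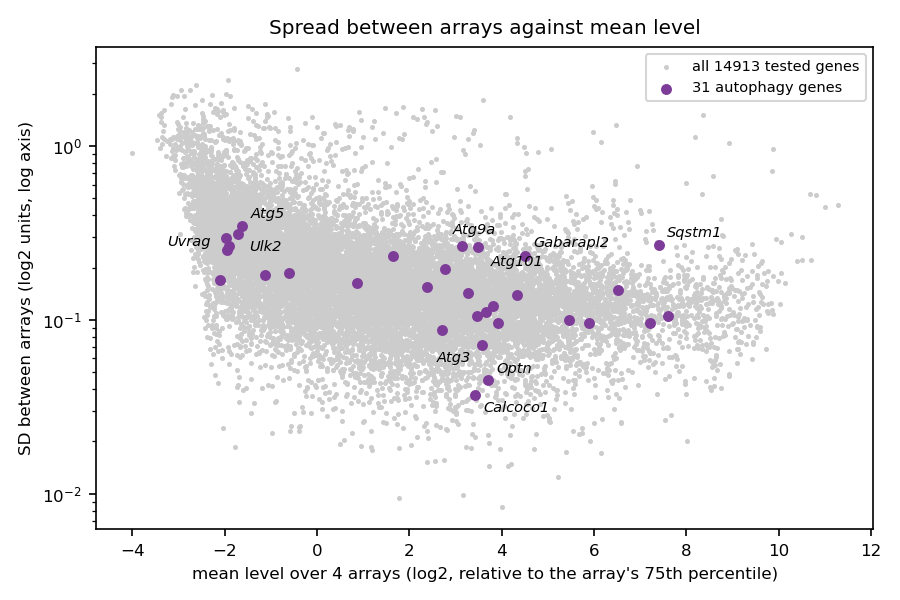
Standard deviation between the 4 arrays (vertical, log2 units on a log axis) against mean level (horizontal, log2 relative to the array's 75th percentile) for 14913 tested genes in grey and the 31 tested autophagy genes in purple. Calcoco1 (0.037) and Optn (0.045) lie at the lower edge of the cloud, Atg5 (0.347), Ulk2 (0.311) and Uvrag (0.296) among the dim genes, and Sqstm1 (0.270) above most genes of its brightness.

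The genes of the ULK1 kinase complex, which receives nutrient signals and starts autophagosome formation, were all measured. Ulk1, the kinase itself, had levels of 4.19, 4.51, 4.35 and 4.26 on replicates 1 to 4, an SD of 0.139. Ulk2, a second kinase able to stand in for it, had levels of -1.42, -2.15, -1.65 and -1.61. Replicate 2 was low and replicate 1 high for Ulk2, and with an SD of 0.311, or 0.118 without replicate 2, its spread was larger than that of 83.1% of tested genes, though its intensities of 20.4 to 40.7 are close to background. A second Ulk2 probe was well above background on 2 arrays and gave -2.65, -2.99, -2.52 and -2.59, again lowest on replicate 2. Rb1cc1, the large scaffold also called FIP200, had levels of -0.95, -1.38, -1.06 and -1.15, with the same array highest and the same array lowest as Ulk2. Its other probe, with levels of -3.46, -3.45, -4.64 and -2.58, carried the mark on no array and had an SD of 0.845. Atg101, a small subunit that stabilises Atg13, had levels of 3.09, 3.61, 3.57 and 3.65. Replicates 2, 3 and 4 lay within 0.087 units of each other, and replicate 1 lay 0.474 below the nearest of them. Atg13, the regulatory subunit, averaged -1.94 with an SD of 0.252 and was also lowest on replicate 1, where it was not well above background.

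The lipid kinase complex that makes phosphatidylinositol 3-phosphate was measured through 5 of its 6 listed genes, and all 5 were well above background on every array. Becn1, its scaffold, had a mean level of 3.47 ± 0.106 (SD, n = 4), and Pik3c3, the catalytic subunit, one of 3.26 ± 0.142 (SD, n = 4). Atg14, which directs the complex to autophagosome formation, averaged 0.86 ± 0.162 (SD, n = 4). Ambra1, which binds Becn1 and links it to the ULK1 complex, averaged 1.65 ± 0.233 (SD, n = 4). Uvrag, which directs the complex to endosomes instead, had levels of -1.55, -2.01, -2.21 and -2.15. It was highest on replicate 1, and its SD of 0.296 was 0.104 without that array. At the main scaling replicate 2 was the highest array for the other 4 genes of the complex, against 38.6% of all tested genes. Pik3c3 was highest on replicate 4 with the percentile over detected probes, quantile normalization and cyclic loess.

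Membrane supply was represented by 5 of 7 listed genes. Atg9a, the transmembrane protein whose vesicles seed the autophagosome, had levels of 3.38, 3.31, 3.03 and 2.80, a range of 0.578 log2 units. Its second probe gave 3.48, 3.23, 2.99 and 2.65, with the arrays in the same order. On replicate 1 the spot of the second probe lay in the bright area, with a local background of 63 against 31 to 32 on the other arrays, while no spot of the first probe did. The first probe was also highest on replicate 1 and lowest on replicate 4 under all 6 settings for scaling and spots that were compared. Atg2a, which transfers lipids into the growing membrane, averaged 3.66 ± 0.111 (SD, n = 4). Wipi2, the phosphoinositide-binding protein that recruits Atg16l1, had levels of 2.14, 2.46, 2.44 and 2.45. At the main scaling replicate 1 thus lay apart from 3 nearly equal arrays, whose own SD was 0.0097. With normexp the Wipi2 levels were 1.61, 1.79, 1.62 and 1.59, lowest on replicate 4, and under each other setting replicate 1 was lowest. Vmp1, an endoplasmic reticulum scramblase, was printed 10 times per array and had levels of 5.80, 6.01, 5.93 and 5.83. Its SD between arrays was 0.096, and the standard error of an array's mean over its 10 spots was 0.028 to 0.034. Another Vmp1 probe, with a single spot, gave 0.24, 1.04, 0.64 and 0.89 with an SD of 0.350, and the remaining one had an SD of 0.130.

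The conjugation machinery was measured through 6 of 7 genes. Atg3, the E2-like enzyme that hands ATG8 proteins to lipids and whose promoter holds 2 E-boxes, had levels of 3.53, 3.52, 3.58 and 3.68. Its SD of 0.071 was larger than that of 8.50% of tested genes. Atg5, which joins Atg12 to form the E3-like complex, had levels of -1.81, -1.28, -1.37 and -2.01 and an SD of 0.347, the largest at the main setting among genes seen on all arrays. Its intensities of 15.9 to 38.6 are dim, and replicates 1 and 4 were low. Atg12 averaged -1.92 ± 0.267 (SD, n = 4) and Atg16l1, the third part of that complex, 2.71 ± 0.087 (SD, n = 4). Atg7, the E1-like enzyme that activates both conjugation arms, had levels of 2.54, 3.02, 2.76 and 2.79, lowest on replicate 1. Atg10, the E2-like enzyme for Atg12, had levels of -0.62, -0.43, -0.55 and -0.87. Its second probe, designed to a predicted transcript, had levels between -4.68 and -4.35 and carried the mark on no array.

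The second probe of Atg7, also designed to a predicted transcript, behaved differently. Its intensity was 233 on replicate 1, where it was well above background, and 5.97, 2.45 and 2.61 on replicates 2, 3 and 4, where it was not. Its spot on replicate 1 lay in the bright area, with a local background of 76 against 28 to 31 elsewhere. All 24 spots around it were well above background on replicate 1, with a median intensity of 284, against 7 of 24 on each other array, with medians of 2.45 to 2.73. The 24 include 3 external spike-in control spots, of which 3 were well above background on replicate 1 and 0 on the others. The part of the bright area in the single high value of Atg7 was not tested. Of the 78 spots of autophagy genes, 4 lay in this area, and 0 of these belonged to a probe used for a gene's level. They were single spots of Atg7, Atg9a, Sqstm1 and Map1lc3b, all of them second or later probes. On the whole array, 841 probes were well above background on replicate 1 alone, and 473 (56.2%) of them had a spot in the bright area. Prkaa2, which encodes an AMPK catalytic subunit upstream of Ulk1 and was picked out here after its values were seen, was also one of these, with an intensity of 90.4 on replicate 1 and of 2.35 to 2.52 on the other arrays.

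**Figure D2:**
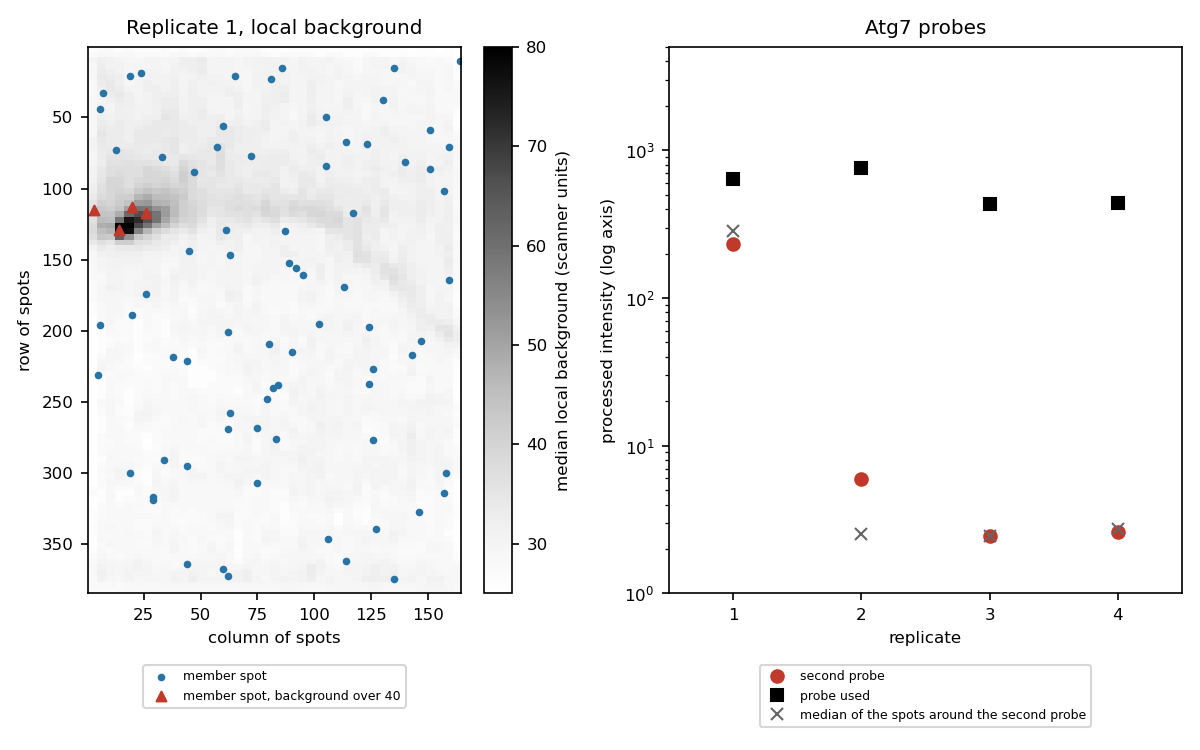
Left, local background of replicate 1 (grey scale, scanner units, median of blocks of spots) by row and column of the array, with the 78 spots of autophagy genes in blue or, where the background is above 40, as 4 red triangles. Right, processed intensity (log axis) by replicate of the Atg7 probe used (black), its second probe (red) and the median of the 24 spots around the second probe (crosses). The second probe and its neighbours are high together on replicate 1 alone.

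All 5 measured ATG8 family genes, whose products coat the autophagosome membrane, were well above background on every array. Map1lc3b (LC3B), the usual marker of autophagosomes, had levels of 6.38, 6.69, 6.57 and 6.39 on its brightest probe. A second probe gave 6.19, 6.50, 6.56 and 6.24, and the third, printed 10 times, gave 5.60, 5.79, 5.74 and 5.52. The fourth gave 3.72, 4.08, 4.10 and 4.09. Replicates 2 and 3 were the high arrays for the first 3 probes, while on the fourth replicate 4 was as high as they were. The 4 SDs lay between 0.125 and 0.183, and the standard error of the third probe's mean over its 10 spots was 0.031 to 0.049 on each array. Map1lc3a, the LC3A isoform, had levels of 5.30, 5.50, 5.49 and 5.52. Gabarap, founder of the other subfamily, had levels of 7.47, 7.71, 7.63 and 7.56. Gabarapl1 had levels of 7.08, 7.31, 7.23 and 7.22, with an SD of 0.096 between arrays and a standard error of 0.014 to 0.020 for the mean over its 10 spots on an array. Gabarapl2 (GATE-16) had levels of 4.15, 4.60, 4.64 and 4.60, with replicate 1 below the other 3. Its second probe gave 3.86, 3.85, 3.79 and 3.59, with replicate 1 the highest, so the 2 probes do not give the same order of arrays.

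Every ATG8 family gene was therefore lowest on replicate 1 on the probe used at the main scaling, against 39.4% of all tested genes. That order depends on scaling for most of them. Under quantile normalization and cyclic loess, Map1lc3a and Gabarapl2 were still lowest there, while Gabarap and Gabarapl1 were lowest on replicate 3 and Map1lc3b on replicate 4. Map1lc3b was also lowest on replicate 4 when spots in the bright area were left out, though no spot of the probe used lay there. With a normexp background correction of the median spot signal, Gabarapl2 was the only one lowest on replicate 1. The family's SDs of 0.096 to 0.234 gave unadjusted p-values from 0.103 for Gabarapl2 to 0.687 for Gabarapl1.

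Sqstm1 (p62), a cargo receptor that also binds the NRF2 inhibitor KEAP1, had the smallest unadjusted p of the 31 genes at the main setting. In limma's variance test it was 0.0629. Atg9a had the smaller value with normexp (0.0379 against 0.357) and without the bright-area spots (0.0504 against 0.0642). The brightest Sqstm1 probe had levels of 7.01, 7.43, 7.64 and 7.51. Its SD of 0.270 was 0.102 without replicate 1 and 0.237 without the bright-area spots. The second probe gave 6.01, 6.72, 6.56 and 6.77, and the third 4.70, 5.07, 5.19 and 5.04. All 3 probes were lowest on replicate 1, by 0.421, 0.541 and 0.341 log2 units from the next array, and differed in which of the other arrays was highest. The spot of the third probe lay in the bright area on replicate 1 and those of the others did not. The brightest probe was lowest on replicate 1 under all 6 settings. On the scanner's own scale before scaling between arrays it read 14084, 16194, 12657 and 11599. The 75th percentiles over spots were 546, 503, 330 and 317 on replicates 1 to 4. Replicate 1 was thus below replicate 2 before scaling, and below replicates 3 and 4 only after it. The part of scaling in this order was not tested.

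At the main setting the other receptors and Tbk1 varied less. Tbk1 had a larger SD than Sqstm1 with quantile normalization (0.244 against 0.196) and normexp (0.220 against 0.211). Without replicate 1 the SDs of Tbk1 (0.120) and Tax1bp1 (0.114) were above that of Sqstm1 (0.102). Nbr1, which is built like Sqstm1 and works with it, had levels of 3.79, 3.96, 3.92 and 4.02, and its second probe gave 2.05, 2.37, 2.24 and 2.42, so both probes were lowest on replicate 1 and highest on replicate 4. Optn, a receptor for damaged mitochondria and bacteria, had levels of 3.74, 3.65, 3.74 and 3.67. Its other probes gave 1.33, 1.29, 1.28 and 1.41, and -0.08, -0.02, -0.01 and 0.09. At the main setting the SDs of the 3 Optn probes were 0.045, 0.058 and 0.070 across a wide range of brightness. No array stood apart on any of them at that setting. Other scalings gave the first probe SDs of 0.092 to 0.141. Tax1bp1, another ubiquitin-binding receptor, had levels of 3.70, 3.72, 3.91 and 3.92, with replicates 3 and 4 above 1 and 2. Calcoco1, an endoplasmic reticulum receptor, had levels of 3.40, 3.46, 3.42 and 3.38 and an SD of 0.037, larger than that of 1.23% of tested genes, which became 0.166 with normexp. Its dimmer second probe, at 0.36, 0.66, 0.43 and 0.29, had an SD of 0.160, so the small spread was seen on 1 of its 2 probes. Tbk1, the kinase that phosphorylates Optn and Sqstm1, had levels of -2.32, -2.16, -2.04 and -1.92 and was not well above background on replicate 1.

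**Figure D3:**
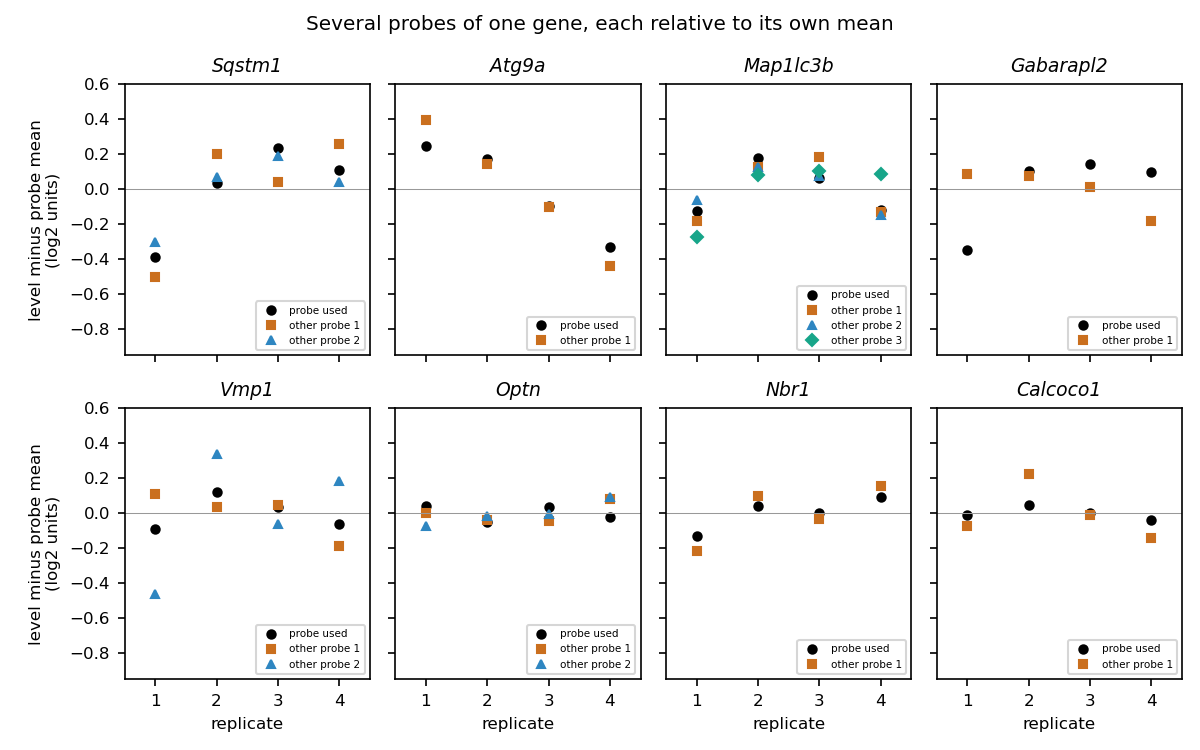
Level minus the probe's own mean (log2 units) on replicates 1 to 4 for 8 autophagy genes that had several probes marked on every array, the probe used in black and other probes in colour. The 3 Sqstm1 probes are low on replicate 1 and the 2 Atg9a probes fall from replicate 1 to replicate 4 in the same order, whereas the 2 Gabarapl2 probes part on replicate 1 and the 3 Optn probes stay near 0.

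Taken over the 31 tested genes, the arrays were not level. Replicate 1 was the lowest array for 19 genes (61.3%), against 39.4% of all tested genes, and the highest for 5 (16.1%), against 21.9%. The share lowest on replicate 1 was 41.3% for tested named genes, 48.4% over the other autophagy lists described below and 50% for the macrophage markers. Replicate 4 was lowest for 5 (16.1%), against 32.5%. Set against its own mean, the median gene deviated by -0.128, 0.102, 0.042 and 0.0053 log2 units on replicates 1, 2, 3 and 4. Over all tested genes the corresponding medians were -0.045, 0.069, 0.015 and -0.024. Genes of one pathway on one array share its labelling and position, so these counts describe the arrays and were not tested. Without the spots in the bright area, which also enter the 75th percentile, replicate 1 was lowest for 13 genes, against 30.0% of all tested genes, and the median deviation there was -0.077. With normexp on the median spot signal it was lowest for 7 genes, against 27.7% of all tested genes, and replicate 4 for 15, against 40.5%. Cyclic loess gave 13 genes lowest on replicate 1, quantile normalization 14 and the percentile over detected probes 17, against 31.1%, 35.3% and 31.4% of all tested genes. With normexp Ulk2 was highest on replicate 3 and Uvrag on replicate 4, and under each other setting both were highest on replicate 1. Rb1cc1, Atg9a and Optn were highest on replicate 1 under all 6 settings. Sqstm1, Atg101, Gabarapl2, Atg13, Atg12 and Tbk1 were lowest on replicate 1 under all 6 settings, the last 3 of them without the mark there.

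**Figure D4:**
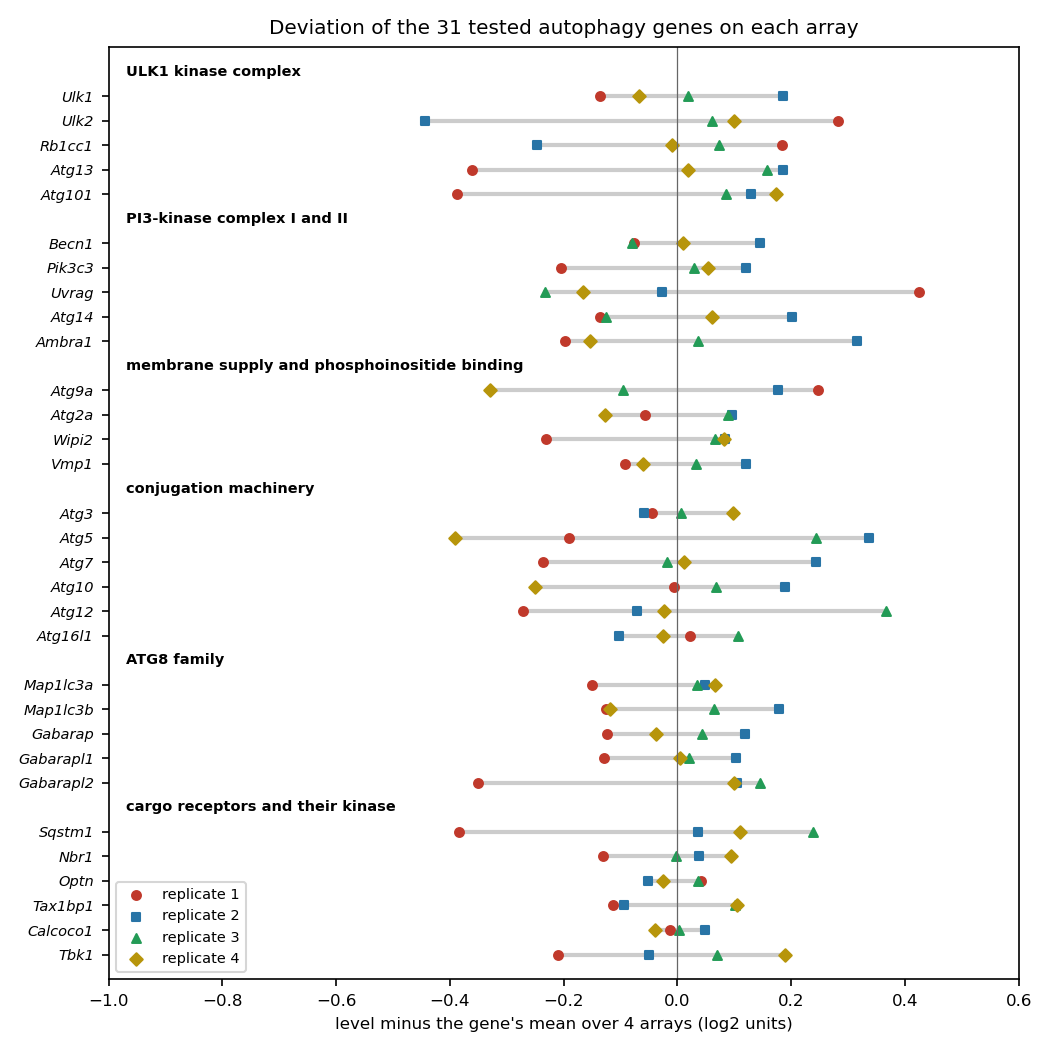
Level of each of the 31 tested autophagy genes on each array minus its mean over the 4 arrays (horizontal, log2 units), by role, with a symbol per replicate and a grey bar over the range. Replicate 1 (red circles) is the lowest array for 19 genes and the highest for 5, among them Uvrag, Ulk2, Rb1cc1 and Atg9a.

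**Figure D5:**
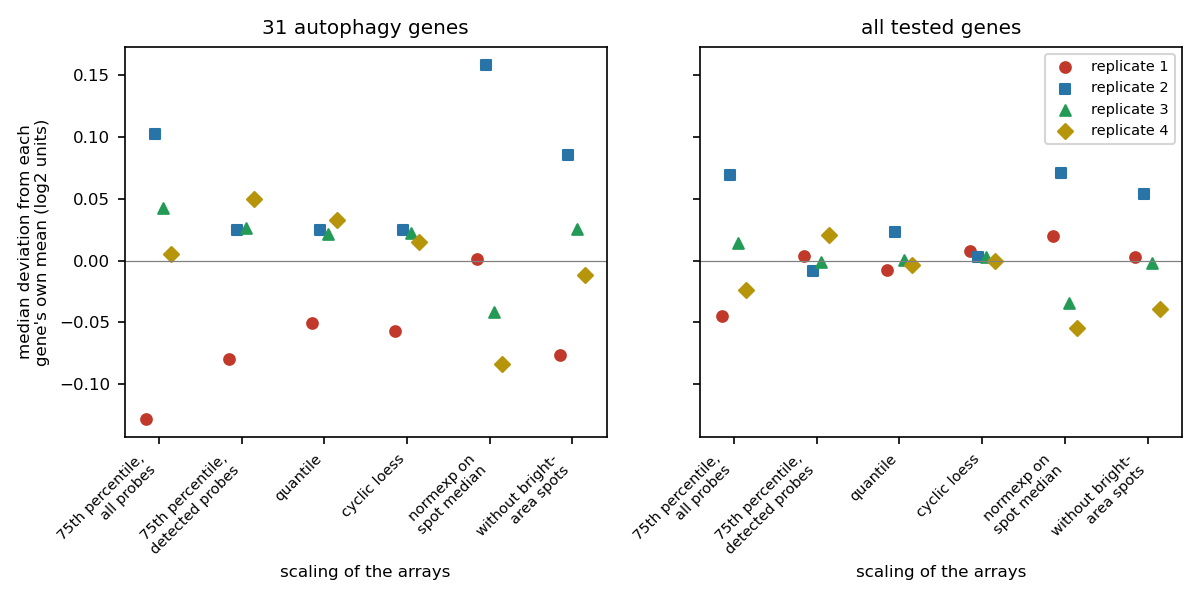
Median deviation from each gene's own mean (log2 units) by array under 6 settings for scaling and spots, for the 31 autophagy genes on the left and for all tested genes on the right. The autophagy genes lie lowest on replicate 1 under each setting but normexp on the median spot signal, where the value is 0.0015 and replicate 4 is lowest.

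Other autophagy genes were taken from 5 lists of 73 genes in all. Of these, 67 were measured and 60 carried the mark on all 4 arrays, against 48.0% of all named genes, a count that was not tested. Fundc1, a receptor for mitochondria, Retreg1, a receptor for the endoplasmic reticulum, and Atg9b were among those that carried the mark on no array. Of 62 that were tested, 1 passed the variance test, against 0.476% of all tested genes and 8 of the 8479 named ones. This was Mitf, a MiT/TFE factor, with levels of 3.15, 4.96, 5.05 and 4.89 (adjusted p = 0.0234 in limma's variance test). The call rests on replicate 1, without which its SD fell from 0.909 to 0.080. It was lost with each of the percentile over detected probes (adjusted p = 0.103), quantile normalization (0.0941), cyclic loess (0.101), a prior without trend (0.538) and the mean over its probes (0.50), and also without replicate 2 (0.0660). It was kept without the bright-area spots (0.0297). Tfeb and Tfe3, its relatives, had SDs of 0.067 and 0.108. Of the 4 measured genes with the E-box letters in their promoter windows, Atg14 and Tbk1 were lowest on replicate 1 at the main scaling. The share over all tested genes was 39.4%. Atg3 was lowest on replicate 2 and Atg5 on replicate 4. Of these 4 genes only Tbk1 was lowest on the same array under all 6 settings, without the mark there. Atg14 was lowest on replicate 3 under the other 5. A link between Mitf and these genes was not tested. In the other lists the largest SDs among tested genes were 0.338 for Atg4a, a protease of ATG8 proteins, 0.440 for Nufip1, a receptor for ribosomes, and 0.269 for Rab7a, a small GTPase of late endosomes.

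Of 8 genes of the NRF2 and p62 axis, 7 were lowest on replicate 1 at the main scaling, against 39.4% of all tested genes, and 0 passed the test. The number was 7 with cyclic loess, 6 with quantile normalization, 5 without the bright-area spots and 4 with normexp, against 31.1%, 35.3%, 30.0% and 27.7% of all tested genes. Mafg, a small MAF partner of NRF2, had the largest SD of these, with levels of 3.29, 4.32, 4.22 and 4.47 (adjusted p = 0.197). Mafg passed the test with a robust prior, without the filter on dim probes and without replicate 3. Txnrd1, thioredoxin reductase, followed with 2.38, 3.07, 2.95 and 3.34 (adjusted p = 0.504). Srxn1, sulfiredoxin, had levels of 6.26, 6.68, 6.59 and 6.78. Nfe2l2, which encodes NRF2, had levels of 4.48, 4.66, 4.56 and 4.47 and was lowest on replicate 4. All values rest on the same 4 arrays, whose number limits the precision, and replicate and slide position cannot be told apart.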

How the data were processed

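RNA from 4 replicates of exposed cells was labelled with Cy3 from 100 ng and hybridised to 1-colour arrays, per the labels' protocols. The deposited files give spot intensity from Agilent Feature Extraction 11.0.1.1, background-subtracted and not normalized between arrays, per the file headers, with marks (other) for signal well above background, that the authors' scanner software set. A mark on at least 50% of a probe's spots counted. Mean log2 intensity per probe, without control spots and spots marked non-uniform, was set against the array's 75th percentile. Accessions were matched to RefSeq genes (GRCr8), which named 46.3% of 45598 probes, and the brightest probe of a gene was used. Genes marked on 2 or more arrays entered what is here called limma's variance test (limma 3.58.1, R 4.3.3). It is a one-sided F test of the residual variance of limma's fit against limma's prior with a trend on level. The F test itself is not a function of limma. Its p-values were adjusted by Benjamini-Hochberg at 0.05. The test was tried on simulated data drawn from its own fitted model, which cannot show that the model holds for these arrays. Promoter sequences came from RefSeq, GRCr8. All 36 genes were to be named, with 4 values for the 3 largest and 3 smallest SDs, for probes that disagree, for ATG8 genes and for receptors. From the other lists the rule took genes past the test, genes not detected on any array and the largest SD of each list. Not every gene so taken is reported here. The members, lists and rules were chosen with earlier results of these data known. Alternatives covered scaling, background, filter, prior, probe choice and each replicate left out.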

Additional observations from a re-analysis of the deposited data

Results flagged for a closer look

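In 6 of 49 probes of autophagy genes 1 array lay far from the other 3, measured as the gap to the nearest array over the whole range. In groups of 4 values chance alone flags about 1 in 20. Over all 17530 probes that entered the test 5.85% met the same rule, and 2.10% did so by being low on replicate 1, beside 5 of 45 such probes of autophagy genes, all low on replicate 1. The share was 0.845 for Atg101, 0.945 for Wipi2, 0.858 for Map1lc3a, 0.91 for Gabarapl2 and 0.943 for the fourth Map1lc3b probe, each low on replicate 1. For the second Atg7 probe it was 0.874, high on replicate 1, where its spot and all 24 spots around it stood in the bright area. The other Map1lc3b probes and the second Gabarapl2 probe did not set replicate 1 apart in this way. All these shares are for the main scaling. With normexp Wipi2 was lowest on replicate 4 and Map1lc3a on replicate 3, while Atg101 and Gabarapl2 stayed lowest on replicate 1. With quantile normalization Map1lc3a read 11.70, 11.74, 11.79 and 11.90 on replicates 1 to 4. The part of the array's scaling or background in the 5 low values was not tested.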

How the results depend on the processing

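The count of autophagy genes past the variance test was 0 under each alternative run, and detection on all arrays stayed between 28 and 31 genes. The count over all tested genes, 71, was 0 with the percentile over detected probes, 1 with quantile normalization, 1 with cyclic loess, 236 with normexp on the median spot signal, 207 with a robust prior, 357 when dim probes were not filtered out and 0 with a prior without trend. It was 67 without spots of high local background. Leaving out each replicate in turn gave 27 to 161. The number of autophagy genes lowest on replicate 1, 19, moved to 7 with normexp, and it was 13 without spots of high local background, 13 with cyclic loess, 14 with quantile normalization and 17 with the percentile over detected probes. The count of other autophagy genes past the test, 1, was 0 with the percentile over detected probes, quantile normalization, cyclic loess, the mean of probes or a prior without trend, 2 with a robust prior, 3 without the filter, and 0 to 2 when a replicate was left out. The cause was not tested. The planned normexp fit on a mean signal was not run, and the median signal was used instead. That fit, the one without spots of high local background and the test of each probe on its own (83 calls, 0 in autophagy genes) were chosen after seeing the data. No paired analysis was possible because there is 1 group. Low signal over background limits Atg5, Ulk2, Uvrag, Atg12, Atg13 and Tbk1, and the small number of arrays limits all values.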
